A study of Homo sapiens with 2 samples.

Results

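The genes described here carry the interleukin-7 signal in T-lineage cells and switch it off again: the receptor chain gene IL7R, the Janus kinase genes JAK1 and JAK3, the transcription factor genes STAT5A and STAT5B, the target kinase gene PIM1, and the feedback inhibitor genes CISH, SOCS1, SOCS2 and SOCS3. Their H3K27ac, the acetyl mark on lysine 27 of histone H3 that is found at active promoters and enhancers, was read from a peak list of LOUCY. LOUCY is an established human line of T-cell acute lymphoblastic leukaemia, T-ALL, and is often taken to stand for the immature form of the disease. Peaks were taken by position alone: every peak touching 1 of 9 windows, each a gene body in the hg19 build with 15 kb added on either side, where the neighbours STAT5A and STAT5B share a window. The windows held 45 of the 52203 peaks of the list. A single H3K27ac library was set against a single input library, made from sheared chromatin that had not been precipitated. Both came from LOUCY cells in standard medium, with no treatment, added cytokine or altered genotype named. The caller kept 54357332 ChIP tags and 71932640 input tags. With 1 library per group there is no replicate error, so the values below describe these libraries and no difference was tested. Marker genes of the cell type were not placed on the genome here.

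Interleukin-7 binds a receptor made of the IL7R chain and the common gamma chain. JAK1 sits on the IL7R chain and JAK3 on the common gamma chain, and when they are brought together they phosphorylate the receptor and then STAT5A and STAT5B. The phosphorylated STAT5 proteins pair, enter the nucleus and bind DNA at sites with the core TTCNNNGAA, among others near CISH, SOCS genes and PIM1. CISH and the SOCS proteins bind receptors or kinases and damp the signal, which closes a negative feedback loop. Immature T cells depend on this pathway for survival, and in T-ALL it is active through mutations of IL7R, JAK1, JAK3 or STAT5B in part of the patients.

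Promoter sequences of RefSeq, from GRCh38.p14, were matched by gene to 9 of the 10 members, all but SOCS2, which had no entry. They show how differently the starts of these genes are built. The 250 bases before the start are printed for CISH, whose entry held the STAT5 core, for IL7R, whose entry held no CpG, and for SOCS1 as an entry rich in CpG. Capitals mark the TTCNNNGAA matches in CISH, the TATAAA match on the strand of the gene in IL7R and the CpG dinucleotides in SOCS1. The stretches lie at chr3:50611775-50612024 (minus strand), chr5:35856641-35856890 (plus strand) and chr16:11256205-11256454 (minus strand) of GRCh38.p14. These positions are not of the build of the peaks.
CISH: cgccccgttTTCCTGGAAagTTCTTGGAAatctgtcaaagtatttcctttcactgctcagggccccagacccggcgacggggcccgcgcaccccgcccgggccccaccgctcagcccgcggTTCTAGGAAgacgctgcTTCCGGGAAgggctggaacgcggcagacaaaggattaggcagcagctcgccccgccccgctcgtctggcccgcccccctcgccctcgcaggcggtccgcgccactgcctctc
IL7R: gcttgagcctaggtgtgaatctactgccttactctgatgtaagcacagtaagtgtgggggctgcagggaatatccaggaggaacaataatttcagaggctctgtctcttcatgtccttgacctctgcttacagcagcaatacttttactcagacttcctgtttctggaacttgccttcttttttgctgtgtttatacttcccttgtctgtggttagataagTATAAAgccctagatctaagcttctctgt
SOCS1: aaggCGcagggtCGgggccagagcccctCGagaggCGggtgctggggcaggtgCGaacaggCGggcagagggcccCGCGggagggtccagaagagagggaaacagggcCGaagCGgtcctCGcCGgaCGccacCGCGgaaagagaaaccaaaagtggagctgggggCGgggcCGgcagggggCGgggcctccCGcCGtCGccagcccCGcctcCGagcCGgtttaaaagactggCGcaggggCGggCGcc

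All 10 genes had an H3K27ac peak within 1 kb of the start, where 8.14% of all consecutive 2 kb stretches of the genome touched one. That background is for the genome at large; gene starts as a class were not placed here. The fold enrichment over input is the authors' single value for a whole peak, whatever its width. For the 10 start peaks it ran from 2.87 at SOCS2 to 10.7 at STAT5A, with a median of 6.11. Peaks with a fold of at least 6 stood at 6 of the 10 starts, while such peaks touched 3.24% of the 2 kb stretches. The 6 were the starts of JAK1, JAK3, STAT5A, STAT5B, PIM1 and SOCS1. The kinases and transcription factors of the pathway were thus all among them, and of the CISH and SOCS genes only SOCS1 was. The 4 weaker starts were those of SOCS3, CISH, IL7R and SOCS2. This split depends on the limit, as PIM1 (6.03) and JAK1 (6.20) lay just above it. With a fold of at least 4, CISH and SOCS3 also had a start peak, and only IL7R and SOCS2 had none. Gene starts are known here to about 1 kb, as the ends of the gene bodies were given to the kb.

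Together the windows spanned 591 kb, of which 174 kb or 29.4% lay under a peak, against 4.90% of the genome. The 10 start peaks made up 75.3 kb of this and the 35 other peaks 98.7 kb. Of the 45 peaks, 12 (26.7%) had a fold of at least 6, close to the 23.2% of all peaks, and 23 (51.1%) had a fold below 3, close to the 48.2% of all peaks. Away from the starts, 22 of the 35 peaks (62.9%) had a fold below 3. Wide peaks took a larger share: 6 of the 45 (13.3%) were 10000 bp or wider, against 4.37% of all peaks. They were the peaks at the starts of JAK1, STAT5A and STAT5B, the peak at the far end of STAT5A, the peak beyond PIM1 and the peak upstream of CISH. A peak was counted if it overlapped a window by 1 bp, so a wide peak was more likely to be counted than a narrow one. The wide peaks beyond PIM1 and upstream of CISH ran past their windows. By position, the 10 peaks at starts had a median width of 5112.5 bp. The 22 other peaks in gene bodies had a median fold of 2.45 and a median width of 1048.5 bp. The 9 peaks in downstream flanks had a median fold of 2.44, and the 4 in upstream flanks had folds from 2.15 to 11.5.

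**Figure D1:**
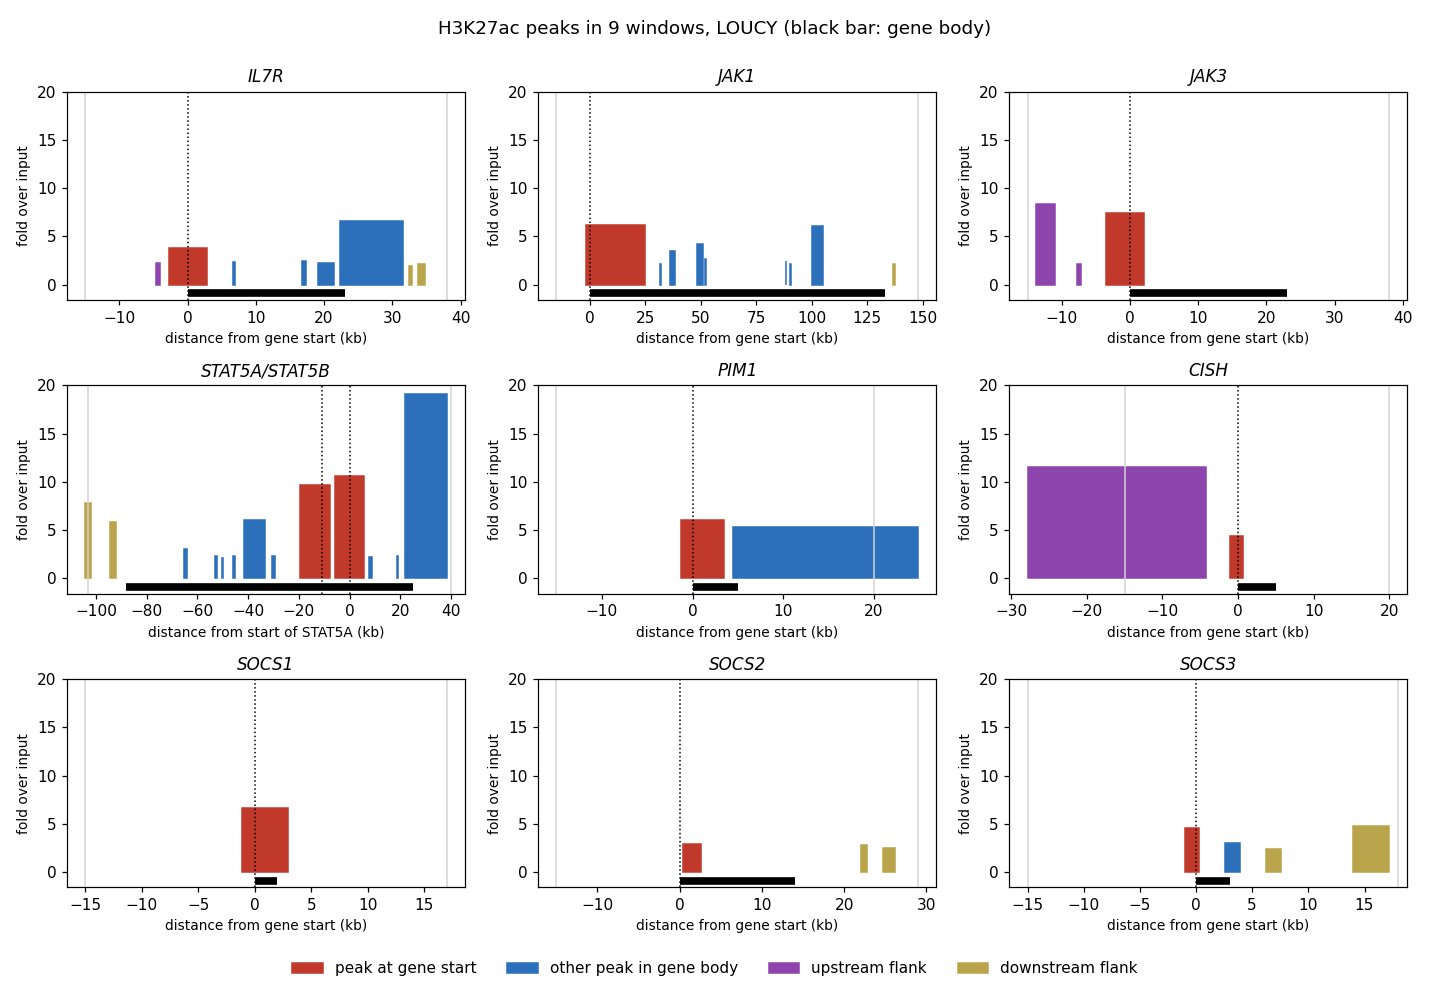
H3K27ac peaks in the 9 windows, with distance from the gene start along the direction of transcription on the x axis (kb; from the start of STAT5A in the shared window) and fold over input on the y axis. Each block is 1 peak, as wide as the peak and as high as its fold; black bars are gene bodies, dotted lines gene starts and grey lines window edges. The highest block, with a fold of 19.1, begins inside the far end of STAT5A, and the block upstream of CISH is higher than the one at its start.

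**Figure D2:**
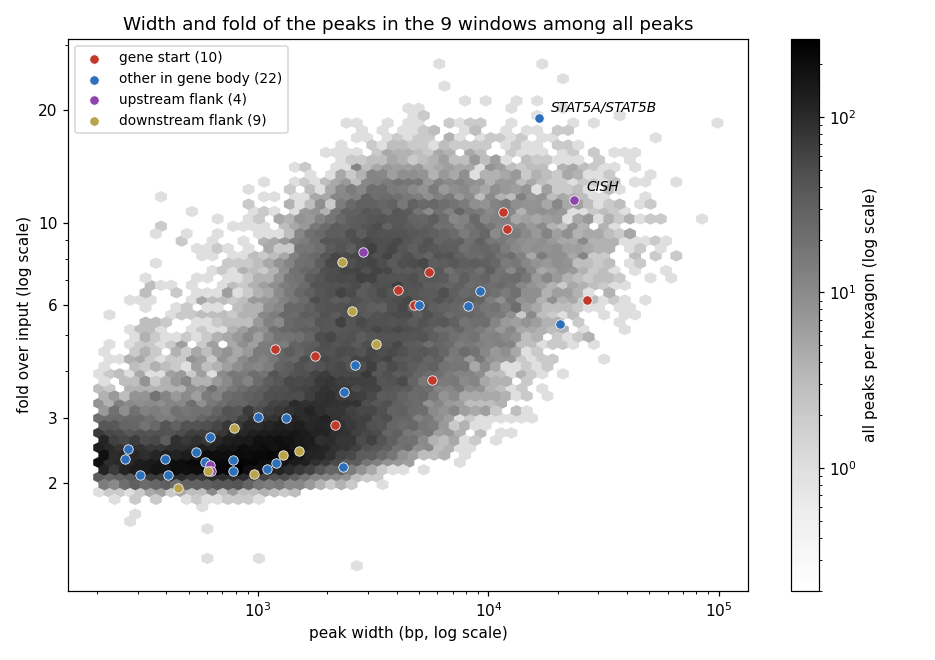
Width (bp, log scale) and fold over input (log scale) of the 45 peaks, coloured by position, over all 52203 peaks in grey (darker hexagons hold more peaks). Peaks at gene starts lie mostly in the upper and right part, most other peaks in gene bodies lie in the dense cloud with a fold below 3, and the peak at the far end of STAT5A stands near the top of the whole list.

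IL7R is the receptor chain that sets whether a cell can respond to interleukin-7. The strongest peak of its window lay across the far end of the gene and not at the start. The body of IL7R lies at chr5:35857000-35880000 on the plus strand, and its window held 8 peaks. The start peak, chr5:35854217-35859887, was 5671 bp wide with a fold of 3.78, and 39.6% of all peaks had at least that fold. The strongest peak, chr5:35879329-35888546, was 9218 bp wide with a fold of 6.57, and it began inside the last kb of the gene and ran 8.546 kb past it. Only 672 bp of this peak lay in the gene, and whether it belongs to IL7R cannot be told from the peak list. The remaining 6 peaks all had folds below 3, from 1.95 to 2.43, and 3 of them lay in the body between the start peak and the strongest one. On the far side of the gene, 3.351 kb beyond the window, followed a peak of 5363 bp with a fold of 3.65. The RefSeq promoter entry of IL7R held 0 CpG dinucleotides in its 300 bases, as did 3.96% of the 35116 entries. It also held TATAAA, which a search on both strands found in 11.5% of entries. The match printed in capitals began 29 bases before the start.

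JAK1, the kinase bound to the IL7R chain and to many other cytokine receptors, carried the widest peak of all the windows. The peak at its start, chr1:65407167-65433863, was 26.7 kb wide, ranked 222 of 52203 by width, and had a fold of 6.20. It reached from about 1.9 kb before the start to 24.8 kb into the gene, whose body lies at chr1:65299000-65432000 on the minus strand. A second strong peak of 4975 bp with a fold of 6.02 lay deep in the body, about 100.1 to 105.1 kb from the start, at chr1:65326890-65331864. In between and around them were 7 further peaks, with folds from 2.11 to 4.16, of which 5 were below 3. RefSeq also lists a start of JAK1 further upstream, outside the window; peaks there were not analysed here. A peak with a fold of 2.47 lay 0.035 kb outside the upstream edge of the window.

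JAK3, the partner kinase on the common gamma chain and largely restricted to blood cells, was marked at its start and almost nowhere else in the gene. The start peak, chr19:17956951-17962443, was 5493 bp wide with a fold of 7.37. The body, chr19:17936000-17959000 on the minus strand, was covered by peaks over 8.91% of its length, all of it by this peak, and no peak lay in the downstream flank. The strongest peak of the window, with a fold of 8.33 over 2864 bp, lay in the upstream flank, more than 10 kb before the start. Whether it belongs to JAK3 cannot be told from the peak list.

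STAT5A and STAT5B, the paired transcription factors that carry the signal to the nucleus, had the strongest acetylation of the set. They lie head to head within chr17:40351000-40464000, STAT5B on the minus strand to the left and STAT5A on the plus strand to the right. Their inner starts were put near 40428000 and 40439000 from the lengths of the genes to their promoter entries in RefSeq (77215 and 24505 bp), laid inward from the ends of the shared span. The start of STAT5B was covered by chr17:40419323-40431363, 12041 bp wide with a fold of 9.62. The start of STAT5A was covered by chr17:40433263-40444786, 11524 bp wide with a fold of 10.7, a fold reached by 3.78% of all peaks.

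The strongest of the 45 peaks lay at the other end of STAT5A. This peak, chr17:40460735-40477305, was 16571 bp wide with a fold of 19.1 and a deposited -log10 q of 162. It ranked 16 by fold and 10 by -log10 q among all 52203 peaks. Of its width, 3266 bp lay inside the gene span and 13.3 kb beyond it, on the side where STAT3, the next gene in the RefSeq order and itself a cytokine-activated transcription factor, lies. The peak therefore cannot be given to STAT5A alone. Within STAT5B, a further peak of 8119 bp with a fold of 5.99 stood at chr17:40397392-40405510, and 7 small peaks in the span had folds from 2.11 to 3.01. Beyond the far end of STAT5B, on the side of GHDC and HCRT, the flank held peaks with folds of 5.80 and 7.84.

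PIM1, a serine/threonine kinase gene switched on by STAT5 that supports survival and growth, was almost wholly acetylated, with a wide peak running on past the gene. Its body, chr6:37138000-37143000 on the plus strand, was covered over 80.6% of its length. The start peak, chr6:37136731-37141462, was 4732 bp wide with a fold of 6.03. The second, chr6:37142432-37162851, began in the last kb of the gene and ran to about 24.9 kb from the start, 20.4 kb in all, with a fold of 5.35. It was among the widest 0.948% of all peaks and ended 4.851 kb outside the window. PIM1 had no neighbour within the flanks in the RefSeq order.

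CISH is the STAT5 target gene whose product competes for docking sites on cytokine receptors. It had a peak of middling width and fold at its start beside a very wide one upstream. The start peak, chr3:50648320-50650085, was 1766 bp wide with a fold of 4.38, and it reached from about 1.1 kb before to 0.7 kb after the start. The upstream peak, chr3:50653257-50676822, began about 4.3 kb before the start, was 23.6 kb wide and had a fold of 11.5, rank 1222 of all peaks; 12.8 kb of it lay outside the window. On that side, which is also the start side, RefSeq has MAPKAPK3, a stress-activated kinase gene, as the next gene. The upstream peak therefore cannot be given to CISH. Whether MAPKAPK3 shares the start peak was not tested. The rest of the body of CISH, chr3:50644000-50649000 on the minus strand, had no peak. A further peak with a fold of 3.57 lay 0.027 kb outside the downstream edge of the window.

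The CISH start peak stood over the promoter with the most STAT5 cores among the matched members. Its entry held 4 matches to TTCNNNGAA, a motif whose fixed letters read the same on both strands: TTCCTGGAA, TTCTTGGAA, TTCTAGGAA and TTCCGGGAA, beginning 241, 230, 129 and 112 bases before the start, as printed above. At least 1 match was found in 7.66% of the 35116 promoter entries, and 4 or more in 7 entries of 6 genes. No entry of the other 8 matched members held the motif, which says only that these letters are not in those 300 bases. With 4 bases between TTC and GAA, a spacing preferred by STAT6, 1 entry of STAT5A matched, against 6.44% of all entries. A match is not evidence of binding, which was not measured.

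The SOCS genes, whose products block Janus kinases or mark signalling proteins for breakdown, differed widely from one another. SOCS1, a direct inhibitor of the kinases, had a single peak, chr16:11347043-11351106, which was 4064 bp wide with a fold of 6.61 and covered the whole gene (chr16:11348000-11350000, minus strand). Its fold nearly equalled that of the strongest IL7R peak, but its deposited -log10 q was 19.6 against 33.7 there: equal folds did not carry equal confidence. A stronger peak of 4868 bp with a fold of 9.55 stood 3.084 kb outside the downstream edge of the SOCS1 window. SOCS3, an inhibitor of cytokine receptors that use the gp130 chain, had 4 peaks, from 1180 to 3241 bp wide. The peak at its start, chr17:76355781-76356960, was 1180 bp wide with a fold of 4.57, and the one at its far end, chr17:76352118-76353439, had a fold of 2.99. RefSeq lists SOCS3-DT, a long noncoding RNA gene, on the start side. Whether SOCS3-DT shares the start peak was not tested. About 14.0 to 17.2 kb from the start of SOCS3 lay the strongest peak of its window, with a fold of 4.73 over 3241 bp. On the upstream side, 2.502 kb past the window, a peak of 11194 bp with a fold of 5.66 followed.

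SOCS2 is best known as the inhibitor of growth hormone signalling and is also a STAT5 target. It had the lowest start fold of the set and the least covered window. Its start peak, chr12:93963399-93965551, was 2153 bp wide with a fold of 2.87, and 55.2% of all peaks had at least that fold. It began 0.4 kb after the start given for the gene, which lies on the plus strand at chr12:93963000-93977000. On the start side RefSeq has SOCS2-AS1, a long noncoding RNA gene, and whether SOCS2-AS1 shares the peak was not tested. The other 2 peaks of the window, 22.0 to 26.2 kb from the start, had folds of 2.81 and 2.44. The deposited -log10 q of the 3 peaks did not exceed 3.42.

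Set against consecutive stretches of the genome of the same length, most windows were in the upper part for coverage and summed signal. The PIM1 window was covered over 58.0% of its length, and 1.11% of the 86738 stretches of 35 kb were covered as much. For STAT5A and STAT5B the share was 40.1%, reached by 1.20% of stretches, for IL7R 37.8%, reached by 2.61%, and for CISH 35.7%, reached by 3.37%. JAK1 followed with 24.1% (reached by 4.31% of stretches), SOCS3 with 21.3% (7.25%) and JAK3 with 17.0% (8.99%). The SOCS1 window (12.7%) and the SOCS2 window (10.1%) were covered least, and 12.5% and 15.2% of stretches were covered as much. By the strongest peak the order was different. A fold as high as that of the STAT5A and STAT5B window was found in 0.0848% of stretches of 143 kb, while a fold as high as that of the JAK1 window was found in 35.0% of stretches of 163 kb. For IL7R, a fold as high was found in 16.2% of stretches of 53 kb. All windows were chosen around genes, which the stretches were not.

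**Figure D3:**
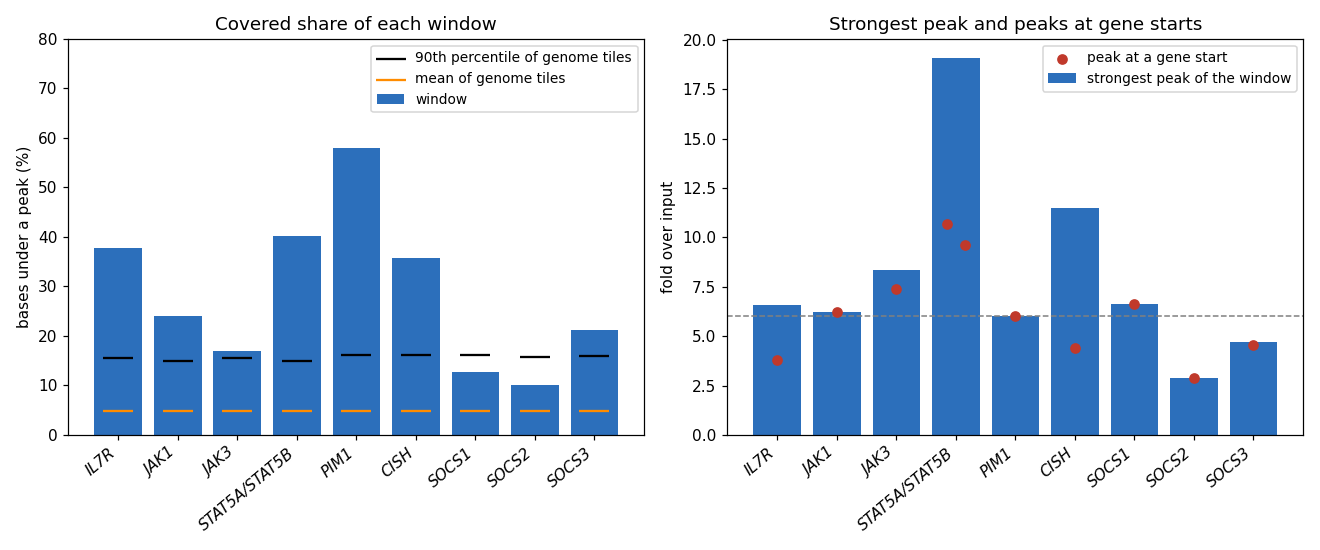
Left, the share of bases under a peak (%) in each of the 9 windows as bars, with the mean (orange) and the 90th percentile (black) of all genome stretches of the same length; right, the fold over input of the strongest peak of each window as bars and of the peaks at gene starts as red points, with a dashed line at a fold of 6. PIM1 has the highest coverage, STAT5A and STAT5B the highest fold, and the red points lie well below the bars for IL7R, CISH and the STAT5 pair.

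Peaks no more than 12.5 kb apart were then joined into regions, and regions were ordered by their summed product of fold and width, a measure of large acetylated domains. The starts of 6 of the 10 genes lay in 5 large domains, a class that held 5.57% of the 25510 regions. That share counts each region once, whatever its size. The share of all gene starts that lie in large domains was not computed. STAT5A and STAT5B shared the domain ranked 97, which spanned 104 kb with 11 peaks. Among these was the peak of 16571 bp with a fold of 19.1 at the far end of STAT5A. As that peak cannot be given to STAT5A alone, the rank is not that of the STAT5 genes alone. CISH followed in the domain ranked 505, whose rank rested on the wide upstream peak: that peak held 97.2% of the summed product and the CISH start peak 2.77%. JAK1 lay in the domain ranked 920 (54.2 kb, 5 peaks), IL7R in that ranked 1257 (73.6 kb, 13 peaks) and PIM1 in that ranked 1331 (41.9 kb, 5 peaks). Both of the latter ran well past the genes. That of IL7R reached chr5:35926008, with the gene ending at 35880000, and the IL7R window held 8 of its 13 peaks. That of PIM1 reached chr6:37178621, with the gene ending at 37143000, and the PIM1 window held 2 of its 5 peaks. The domains of IL7R and PIM1 lay near the limit of the class, which held 1421 regions, and with joining within 5000 bp IL7R was no longer in a large domain, which left 5 genes. JAK3 ranked 3398, SOCS3 7940, SOCS1 8163 and SOCS2 16518. With peaks of a fold of at least 4 alone, a limit chosen after the data had been seen, only STAT5A, STAT5B and CISH stayed in a large domain.

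The promoter entries of the members ranged from no CpG to among the richest of the table. Taking the richest entry at each start, CpG counts in 300 bases were 0 for IL7R, 14 for JAK3, 33 for CISH and for SOCS1, 34 for SOCS3, 37 for STAT5A, 39 for PIM1, 43 for JAK1 and 55 for STAT5B. The median of all entries was 14. STAT5B, with the most, was in the top 0.373% of entries and had the second highest start fold of the set. JAK3, at the median, had the third highest start fold, and CISH and SOCS3, both rich in CpG, had start folds below 5. No relation was computed over these 9 genes.

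**Figure D4:**
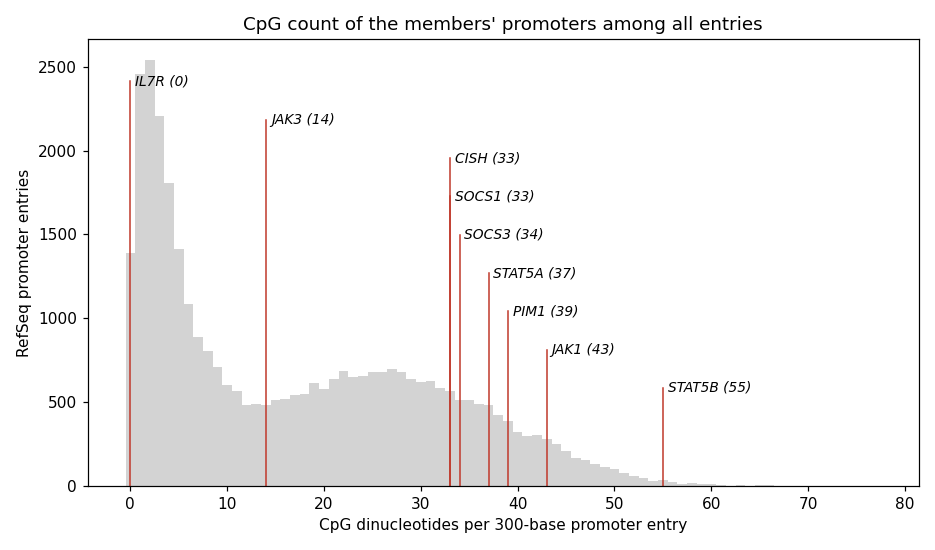
Number of CpG dinucleotides (x axis) in the 300-base RefSeq promoter entries (grey bars, number of entries on the y axis), with red lines at the richest entry at the start of each of 9 members, the count in parentheses; the height of a red line has no meaning. IL7R lies at 0, JAK3 at 14, and the other 7 genes lie between 33 and 55.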

How the data were processed

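H3K27ac and input DNA of LOUCY were sequenced, 1 library each. Bowtie2 and MACS2 with the hg19 build are named in the submitters' processing notes; the version and settings of Bowtie2 are not stated there. The authors called broad peaks with MACS2 2.1.0.20140616, ChIP against input, keeping 1 tag per position, per the file headers; this dropped 13.2% of ChIP tags and caps the height of strong peaks. The deposited fold is a ratio of ChIP pileup to local input, with 1 value for each peak whatever its width. The fold of a start peak is therefore that of the whole peak and not of the start itself. The -log10 p-value of each peak, like its -log10 q-value, was deposited as MACS2 gave it. The deposited pileup was not used.

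A peak belonged to a window if it overlapped it by 1 bp. The members and lists were chosen with earlier results of these data known. All 10 genes, the strongest peak of each window and every start peak were named; other pathway genes were listed but not placed, as no hg19 annotation was used here. Strands, neighbour order and promoter sequences came from RefSeq tables of GRCh38.p14; the strand of SOCS2 is general knowledge. Genome stretches used hg19 chromosome lengths. Large domains were those past the point of slope 1 on the rank curve. Overlap, tiling and joining were tested on simulated peaks. Alternatives covered thresholds, flanks, overlap, distance to starts, joining, ranking and motifs. Python 3.11.15, numpy 2.4.6 and pandas 2.3.3 were used. A neighbouring gene is not reported here.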

Additional observations from a re-analysis of the deposited data

How the results depend on the processing

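With a -log10 q of at least 10 or a fold of at least 4, the number of peaks in the windows fell from 45 to 18 or 19, the covered share from 29.4% to 24.3% or 24.5%, and the genes in a large domain from 6 to 3 under both (the last at a fold of 4 was added after the data had been seen), because weak peaks were removed. With a flank of 50 kb there were 69 peaks and 20.7% was covered; with no flank 29.7% was covered. Without the STAT5A and STAT5B window, an alternative added after the data had been seen, the share was 26.0%. Of the 9 windows, 5 had the same rank by highest -log10 q and 3 by summed fold times width, with STAT5A and STAT5B first, CISH second and SOCS2 last in each order. The share of promoter entries with TTCNNNGAA was 6.57% in the bases before the start, against 7.66%, and 6.44% had the form with 4 bases between TTC and GAA. The genes with a start peak numbered between 7 and 10 over 4 alternatives; IL7R, SOCS2 and SOCS3 had none at a -log10 q of at least 10. No paired analysis was possible because each arm holds a single library. Fold is a ratio to input and depends on its local level, and no value has a replicate check.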
